A study of Mus musculus with 6 samples.

Results

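Bone morphogenetic protein (BMP) signalling was followed through 10 genes in mouse kidneys at E13.5: the ligand genes Bmp2, Bmp4 and Bmp7, the secreted antagonist genes Grem1 and Bmper, the receptor genes Bmpr1a and Bmpr2, and the target genes Id1, Id2 and Id3. They are 10 of the 18193 genes represented on the arrays and were listed by name, with earlier results of these data known. They are covered by 21 of the 45037 probe sets tested, each annotated to that gene alone, and the brightest of them by its mean on the 6 arrays represents the gene. The series holds 6 Affymetrix MOE430.2 arrays, 3 of double-null kidneys (Fz4-/-Fz8-/-) and 3 of Fz8-null kidneys (Fz4+/+Fz8-/-). All 6 samples lack Fz8 and came from a hybrid background of C57BL/6, 129X1/SvJ and 129S1/Sv, so the comparison shows the loss of the Frizzled receptor Fz4 where Fz8 is already absent, and no kidney with Fz8 is analysed here. Each array carried cRNA from 100 ng of total RNA of whole kidney, and the labels call the 3 samples of a genotype biological replicates without saying whether a sample pools embryos. Values below are log2 intensities, each difference is the double-null mean minus the Fz8-null mean on that scale, and values per array follow the order of replicates 1, 2 and 3.

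BMP ligands bind a type I and a type II receptor, and the type I receptor phosphorylates Smad1 and Smad5. These Smads act with Smad4 on target genes such as the Id genes, whose products block basic helix-loop-helix transcription factors. In the developing kidney, BMP4 made by the mesenchyme around the nephric duct restrains budding and gremlin, the product of Grem1, relieves that restraint so that the ureteric bud can grow and branch. BMP7 is made by the ureteric bud and the cap mesenchyme and maintains nephron progenitors.

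Sequence is shown for 3 of the genes, because Id2 and Id3 are the Id target genes for which a window was found and Grem1 had the widest difference between the genotypes. RefSeq promoter windows of the GRCm38.p6 build, running from 250 bases before the gene's start to 50 after it, were found for 7 of the 10 genes (Bmp4, Grem1, Bmper, Bmpr1a, Bmpr2, Id2 and Id3). Each is written 5′ to 3′ on the gene's strand, with the letters GGCGCC, a GC-rich element to which Smad1 and Smad5 can bind, in capitals.
Id2 (chr12:25096043-25096342, minus strand): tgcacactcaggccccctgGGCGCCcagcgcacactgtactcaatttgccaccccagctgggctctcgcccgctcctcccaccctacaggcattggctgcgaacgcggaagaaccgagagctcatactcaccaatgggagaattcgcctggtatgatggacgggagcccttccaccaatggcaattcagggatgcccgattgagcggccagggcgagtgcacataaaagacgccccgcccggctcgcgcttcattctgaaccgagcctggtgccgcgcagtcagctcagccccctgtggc
Id3 (chr4:136143572-136143871, plus strand): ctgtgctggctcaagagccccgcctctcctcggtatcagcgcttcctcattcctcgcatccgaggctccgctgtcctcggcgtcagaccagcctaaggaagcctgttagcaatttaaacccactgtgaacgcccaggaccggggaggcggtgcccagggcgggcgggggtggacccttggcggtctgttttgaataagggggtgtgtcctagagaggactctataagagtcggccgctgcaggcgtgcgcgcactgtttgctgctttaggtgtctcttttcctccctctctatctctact
Grem1 (chr2:113758599-113758898, minus strand): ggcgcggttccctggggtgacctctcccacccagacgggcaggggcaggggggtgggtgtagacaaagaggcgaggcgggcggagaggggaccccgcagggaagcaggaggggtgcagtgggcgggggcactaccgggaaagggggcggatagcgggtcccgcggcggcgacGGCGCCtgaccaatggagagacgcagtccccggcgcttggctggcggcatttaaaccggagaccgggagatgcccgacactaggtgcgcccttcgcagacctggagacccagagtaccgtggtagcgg
The letters GGCGCC, which read the same on both strands, were found once in the windows of Grem1, Bmpr1a, Bmpr2 and Id2 and not in those of Bmp4, Bmper and Id3. They begin at position 173 of the Grem1 window and at position 20 of the Id2 window. Of all 32851 promoter windows in the RefSeq table, 11.9% hold them. Base composition goes with such counts, and the 7 windows range from 59.3% to 79.3% G or C. A palindromic Smad box, GTCTAGAC, and the compound BMP response element, GGCGCC followed after 5 further bases by GTCT, were searched on both strands and found in 0 of the 7 windows, against 0.213% and 0.0731% of all windows. The matches describe letters in these windows only.

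The arrays did not group by genotype alone. Across genes, which are not independent replicates, double-null replicate 3 correlated with the Fz8-null arrays at 0.988 to 0.990, while double-null replicates 1 and 2 correlated with them at 0.961 to 0.981. The B1 repeat control probe set read 11.83, 12.08 and 10.85 in double-null kidneys, against 11.02, 10.67 and 10.73 in Fz8-null kidneys, so that replicates 1 and 2 were high. The 5′ control probe set of 18S RNA read 9.88, 10.56 and 9.86 in double-null arrays, against 8.53, 7.59 and 7.84 in Fz8-null arrays, and the 3′ one was higher without overlap as well (by 1.73), while the middle one overlapped. The bioB and bioC hybridization controls were higher without overlap, by 0.68 to 0.86. The 5′ probe sets of actin and Gapdh were lowest in double-null replicates 1 and 2, at 11.58 and 11.73 for actin, against 11.91 or more on the other arrays. A list of 7 measured liver genes averaged 6.93, 9.59 and 9.85 in double-null arrays, against 5.73 to 6.56 in Fz8-null arrays, with all 7 higher. Erythroid markers (5 of 6 higher) averaged 6.04 in double-null replicate 1 and 8.93 or more in replicates 2 and 3, against 6.62 to 6.85 in Fz8-null arrays, and macrophage markers (4 of 5 higher) averaged 7.44, 8.57 and 8.29 in double-null arrays, against 7.32 to 7.52 in Fz8-null arrays. The part of these controls and lists in the values below was not tested. Fzd4 itself read 5.29, 4.96 and 3.89 in double-null arrays, against 10.74, 10.86 and 10.93 in Fz8-null arrays, so it was low on each array labelled double-null. Of the kidney genes checked, Pax8, Lhx1, Sall1 and Wt1 read between 8.79 and 11.42 on every array. All 4 stood lower in double-null kidneys, by 0.15 to 0.27, Lhx1 and Wt1 without overlap, and none passed. Over all genes 58.1% stood lower, and 12.2% were lower without overlap. Fewer cells of a type and less RNA per cell cannot be told apart in whole kidneys.

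None of the 10 BMP genes passed the threshold, an adjusted p of 0.05 in limma's moderated linear model with Benjamini-Hochberg adjustment over all 18193 genes. Of all genes, 5 passed (0.0275%). Of the 21 probe sets 0 passed when adjusted over all probe sets, of which 5 passed (0.0111%). At an unadjusted p under 0.05 the counts were 0 of 10 BMP genes, against 15.3% of all genes. The groups overlapped for each of the 10 genes, whereas for 18.9% of all genes the 3 double-null arrays lay wholly above or wholly below the 3 Fz8-null arrays. Of the 10 genes, 5 stood lower and 5 higher in double-null kidneys, with a median difference of 0.0010. Over all genes 58.1% stood lower and the median difference was -0.061. Brighter genes stood lower more often: of 11174 genes with a mean of 6 or more, 7991 were lower, with a median of -0.15. Among the 9 BMP genes with such a mean, 5 were lower, with a median of -0.0077. These counts describe the 10 genes and show neither a shift nor its absence, since the 95% interval of the difference ran from -0.30 to 0.35 for Bmpr2, the narrowest, and from -0.25 to 2.41 for Grem1, the widest.

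**Figure D1:**
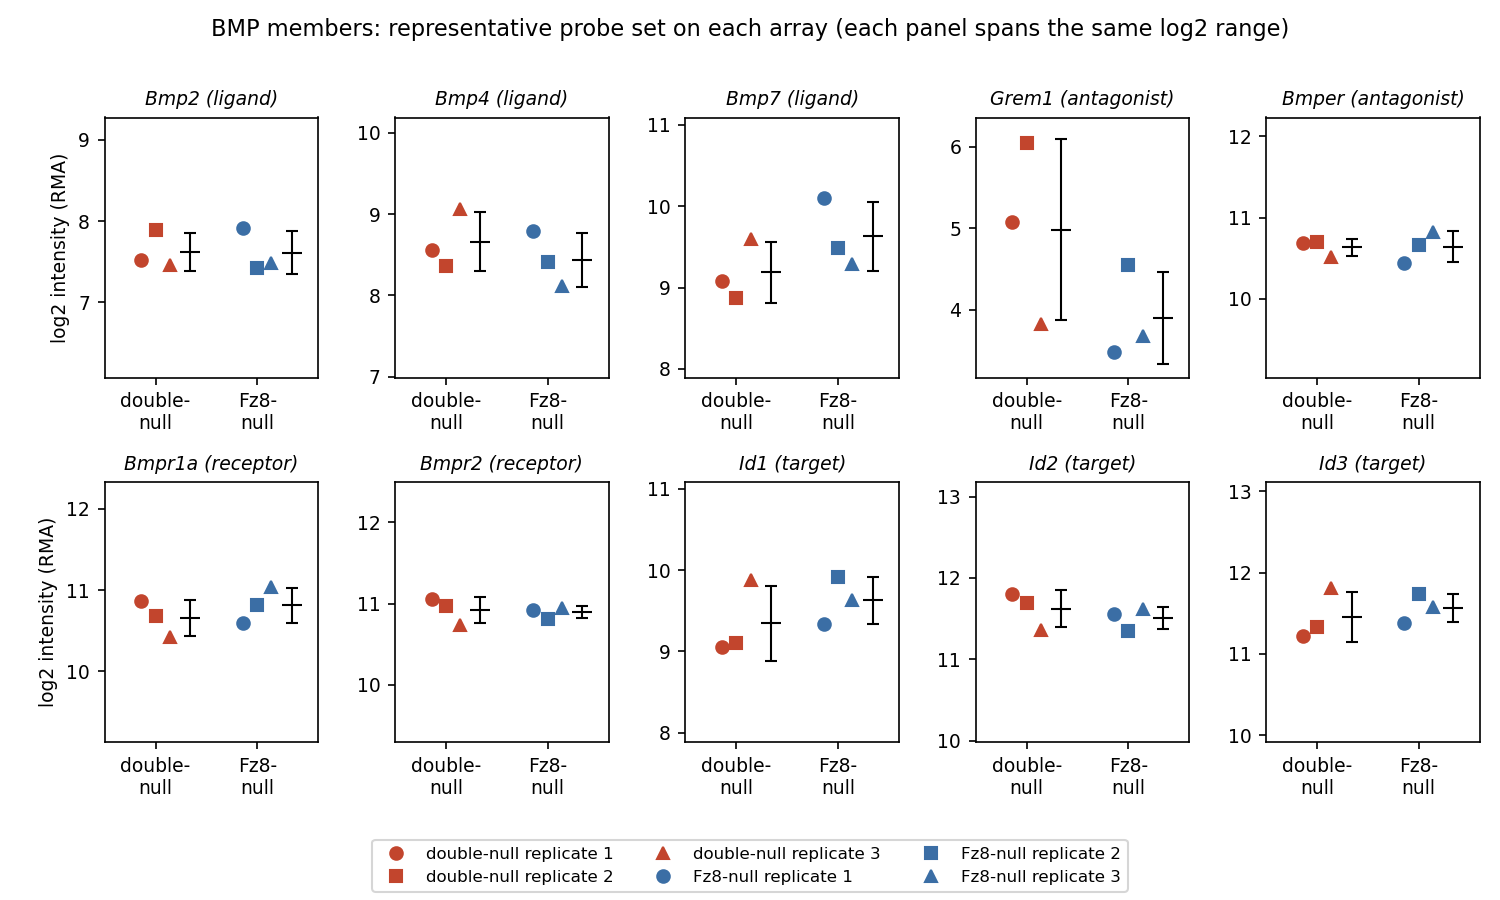
Log2 intensity (vertical axis) of the representative probe set of each of the 10 BMP genes in double-null kidneys (red, left) and Fz8-null kidneys (blue, right); symbols mark replicates 1, 2 and 3, and the black dash and bar give the mean ± SD of 3 arrays. Red and blue points overlap in every panel, and Grem1 shows the widest scatter, from 3.82 to 6.04 among the double-null arrays.

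Bmp7 had the largest difference among the ligand genes Bmp2, Bmp4 and Bmp7. Its representative probe set read 9.08, 8.88 and 9.60 in double-null kidneys, against 10.11, 9.49 and 9.29 in Fz8-null kidneys. Double-null replicates 1 and 2 lay below every Fz8-null array, and double-null replicate 3 lay inside their range. The means were 9.19 ± 0.37 in double-null and 9.63 ± 0.43 in Fz8-null kidneys (SD, n = 3 each), a difference of -0.44 (SE 0.27, 95% interval -1.09 to 0.21, limma adjusted p = 0.428). It was -0.20 without Fz8-null replicate 1, the highest array, and -0.29 without double-null replicate 2. It was -0.51 without Fz8-null replicate 2 and -0.61 without Fz8-null replicate 3. Without double-null replicate 3 it was -0.65 and did not pass (limma adjusted p = 0.119), in a fit where 18.1% of all genes passed. Bmp7 has 2 further probe sets. The first of them, 1418910_at, read 7.52, 7.25 and 7.92 in double-null kidneys, against 7.97, 7.89 and 7.71 in Fz8-null kidneys, again with replicates 1 and 2 low and replicate 3 inside the Fz8-null range (difference -0.30, limma adjusted p over all probe sets = 0.445).

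The other Bmp7 probe set, 1432410_a_at, was the single one of the 21 whose groups did not overlap, against 18.6% of all probe sets. It read 4.13, 4.14 and 5.51 in double-null kidneys, against 5.66, 6.30 and 6.20 in Fz8-null kidneys. All 3 double-null arrays lay below the lowest Fz8-null array, replicate 3 by the smallest margin. The difference was -1.46 (SE 0.40, 95% interval -2.43 to -0.50) and did not pass over all probe sets (limma adjusted p = 0.322; exact two-sided permutation p = 0.1, the smallest that 3 arrays against 3 allow). This probe set stands at the 29.6th percentile of probe sets in double-null and the 49.3rd in Fz8-null arrays, below the median in both, and its difference is larger than the -0.44 of the representative. Without double-null replicate 3 it stood at -1.92 and passed (limma adjusted p = 0.00378), in a fit where 23.9% of all probe sets passed.

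Bmp7 is made in ureteric and progenitor cells, and the lists of both cell types stood lower as well. All 8 nephron progenitor markers stood lower in double-null kidneys, 7 of them without overlap. Over all genes 58.1% stood lower, and 12.2% were lower without overlap. The mean log2 level of these 8 markers was 8.36, 8.26 and 8.72 in double-null arrays, against 9.21 to 9.27 in Fz8-null arrays. All 8 ureteric tip markers stood lower, 7 of them without overlap, and Vsnl1 passed over all genes. The means of the tip markers were 7.36, 7.05 and 7.47 in double-null arrays, against 8.22 to 8.38 in Fz8-null arrays. The lowest single value among these markers was 4.48, for Vsnl1 in double-null replicate 1. The part of these lists in the Bmp7 values was not tested.

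Bmp4 read 8.56, 8.36 and 9.06 in double-null kidneys, against 8.79, 8.41 and 8.12 in Fz8-null kidneys. The highest of the 6 values was double-null replicate 3 and the lowest Fz8-null replicate 3, and the other values were interleaved. The difference was 0.22 (SE 0.24, 95% interval -0.36 to 0.80, limma adjusted p = 0.643). It was 0.022 without double-null replicate 3, 0.062 without Fz8-null replicate 3 and 0.40 without Fz8-null replicate 1, and passed in none of these fits. The 6 stroma markers had 3 genes higher and 3 lower, with means of 10.29 to 10.52 in double-null arrays and 10.26 to 10.35 in Fz8-null arrays. The 6 markers of ureter mesenchyme and smooth muscle had 4 genes higher and 2 lower. Of these, 2 were higher without overlap, against 6.68% of all genes. Their means were 7.28, 7.07 and 6.98 in double-null arrays, against 6.67 to 6.89 in Fz8-null arrays. The part of both lists in the Bmp4 values was not tested.

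Bmp2, a ligand gene also used by forming nephrons, read 7.52, 7.89 and 7.46 in double-null kidneys, against 7.92, 7.43 and 7.49 in Fz8-null kidneys. The highest were double-null replicate 2 and Fz8-null replicate 1, and the other 4 arrays lay close together below them. The difference was 0.0097 (SE 0.19, 95% interval -0.45 to 0.47, limma adjusted p = 0.983).

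Grem1 had the largest difference of the 10 genes and the widest spread. It read 5.08, 6.04 and 3.82 in double-null kidneys, against 3.48, 4.54 and 3.67 in Fz8-null kidneys. Double-null replicates 1 and 2 lay above every Fz8-null array and double-null replicate 3 did not. The means were 4.98 ± 1.11 in double-null and 3.90 ± 0.57 in Fz8-null kidneys (SD, n = 3 each), a difference of 1.08 (SE 0.56, 95% interval -0.25 to 2.41, limma adjusted p = 0.366). The pooled SD within groups, 0.88, was at the 97.9th percentile of all genes, where the median gene had 0.23. Grem1 stood on average at the 35.9th percentile of probe sets in double-null and the 22.7th in Fz8-null arrays. Its 1 probe set was thus dim on average, though on double-null replicate 2 its 6.04 was close to the array median of 6.05. The arrays carry no detection call to say whether it is above background.

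The value of Grem1 turned on single double-null arrays. It was 0.55 without double-null replicate 2 (limma adjusted p = 0.722). Without double-null replicate 3 the difference was 1.66 and passed (limma adjusted p = 0.0348, over a range of 0.0348 to 0.978 in all alternatives), in a fit where 18.1% of all genes passed. With double-null replicates 1 and 2 left out it was -0.075. The B1 repeat control was also high on double-null replicates 1 and 2, at 11.83 and 12.08, against 10.85 on double-null replicate 3. Among the Fz8-null arrays, replicate 2 had the highest Grem1 value, 4.54, and the lowest B1 control, 10.67. The part of this control in the Grem1 values was not tested.

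Bmper, which encodes an extracellular BMP-binding protein that can dampen or promote signalling, read 10.69, 10.71 and 10.51 in double-null kidneys, against 10.44, 10.67 and 10.82 in Fz8-null kidneys. The 6 values lay between 10.44 and 10.82 and were interleaved. The difference was -0.0077 (SE 0.15, 95% interval -0.36 to 0.34, limma adjusted p = 0.982), and its sign turned with quantile normalization and with equal array medians.

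Bmpr2 varied least of the 10 genes within the groups. This gene of the type II receptor read 11.05, 10.97 and 10.74 in double-null kidneys, against 10.92, 10.81 and 10.95 in Fz8-null kidneys. Its pooled SD within groups was 0.13, and the difference was 0.027 (SE 0.14, 95% interval -0.30 to 0.35, limma adjusted p = 0.930). Of its 2 further probe sets, 1419616_at stood at 0.21 and the dim 1441652_at at -0.57, and neither passed over all probe sets (limma adjusted p = 0.531 and 0.455).

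Bmpr1a, the type I receptor gene, has 6 probe sets, which gives the closest look at a single gene in this set. Its representative read 10.87, 10.68 and 10.43 in double-null kidneys, against 10.60, 10.81 and 11.03 in Fz8-null kidneys, a difference of -0.16 (SE 0.18, 95% interval -0.57 to 0.26, limma adjusted p = 0.653). Double-null replicate 3 was the lowest array and Fz8-null replicate 3 the highest. The difference was -0.040 without the first of these arrays and -0.048 without the other. The other 5 probe sets stood between -0.29 and 0.0037, and none of them passed. The bright probe sets 1425493_at and 1425491_at stood at 0.0037 and -0.063 with 95% intervals of -0.30 to 0.31 and -0.37 to 0.25.

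**Figure D2:**
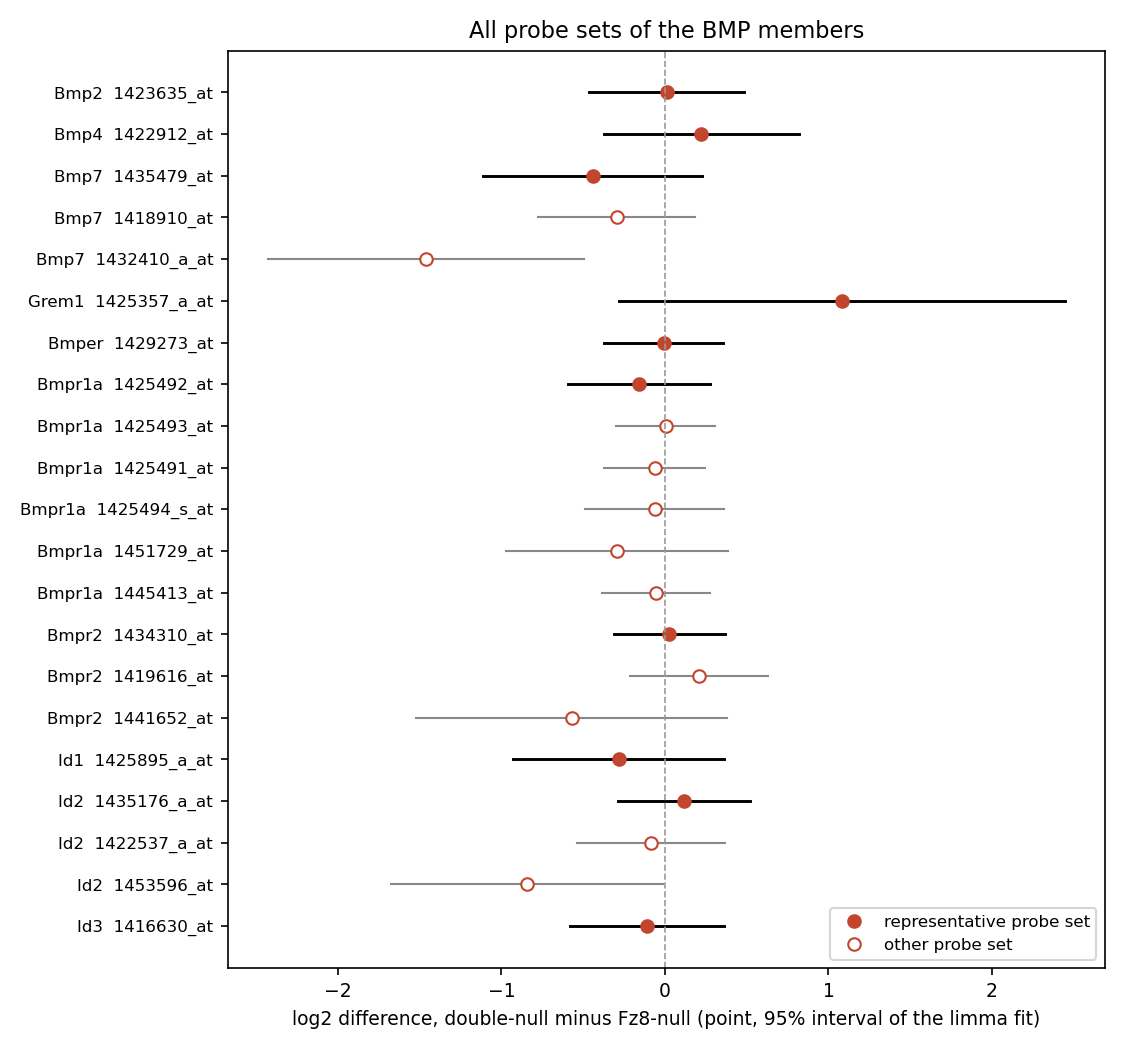
Log2 difference, double-null minus Fz8-null (horizontal axis), for the 21 probe sets of the 10 BMP genes; points are limma estimates, lines are 95% intervals, filled points are representative probe sets and open points the others. All representative intervals include 0, and the intervals of the Bmp7 probe set 1432410_a_at (-2.43 to -0.50) and the Id2 probe set 1453596_at (-1.68 to -0.011) do not.

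No Id gene passed. The differences of the 3 representative probe sets did not share a sign, but that of Id2 depended on the probe set. Its further probe sets stood lower, at -0.085 and -0.84, as Id1 and Id3 did. Id1 read 9.06, 9.10 and 9.88 in double-null kidneys, against 9.34, 9.91 and 9.63 in Fz8-null kidneys. Double-null replicates 1 and 2 were the lowest of the 6 arrays, and double-null replicate 3 was close to the highest Fz8-null array. The difference was -0.28 (SE 0.26, 95% interval -0.91 to 0.34, limma adjusted p = 0.583). It was -0.14 without Fz8-null replicate 2 or without double-null replicate 1, and -0.16 without double-null replicate 2. It was -0.43 without Fz8-null replicate 1, -0.28 without Fz8-null replicate 3 and -0.55 without double-null replicate 3.

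Id3 had the same order of arrays in double-null kidneys, with 11.22, 11.34 and 11.81, against 11.39, 11.74 and 11.57 in Fz8-null kidneys. Its difference was -0.11 (SE 0.19, 95% interval -0.57 to 0.35, limma adjusted p = 0.782). After each gene's own mean was subtracted, the profiles of Id1 and Id3 over the 6 arrays differed by a root mean square of 0.14.

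On its representative probe set, Id2 ran the other way across the double-null arrays, with 11.81, 11.70 and 11.36, against 11.55, 11.35 and 11.61 in Fz8-null kidneys. Its difference was 0.12 (SE 0.16, 95% interval -0.27 to 0.50, limma adjusted p = 0.719). The closest profile to it among the 10 genes was that of the receptor gene Bmpr2, at a root mean square difference of 0.071, the smallest of the 45 pairs of members. Both genes varied little, with pooled SDs within groups of 0.19 and 0.13, and such genes lie near each other by this measure.

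The probe sets of Id2 disagreed with each other. The probe set 1422537_a_at read 10.90, 11.21 and 11.43 in double-null kidneys, against 11.06, 11.45 and 11.28 in Fz8-null kidneys, so the order of the double-null arrays was opposite to that of the representative (difference -0.085). The dimmer 1453596_at read 5.55, 6.15 and 6.50 in double-null kidneys, against 6.27, 7.17 and 7.28 in Fz8-null kidneys. There the groups overlapped through Fz8-null replicate 1, and the difference of -0.84 (SE 0.35) did not pass (limma adjusted p over all probe sets = 0.322). It and the Bmp7 probe set 1432410_a_at were the 2 of 21 with an unadjusted p under 0.05, against 15.4% of all probe sets.

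**Figure D3:**
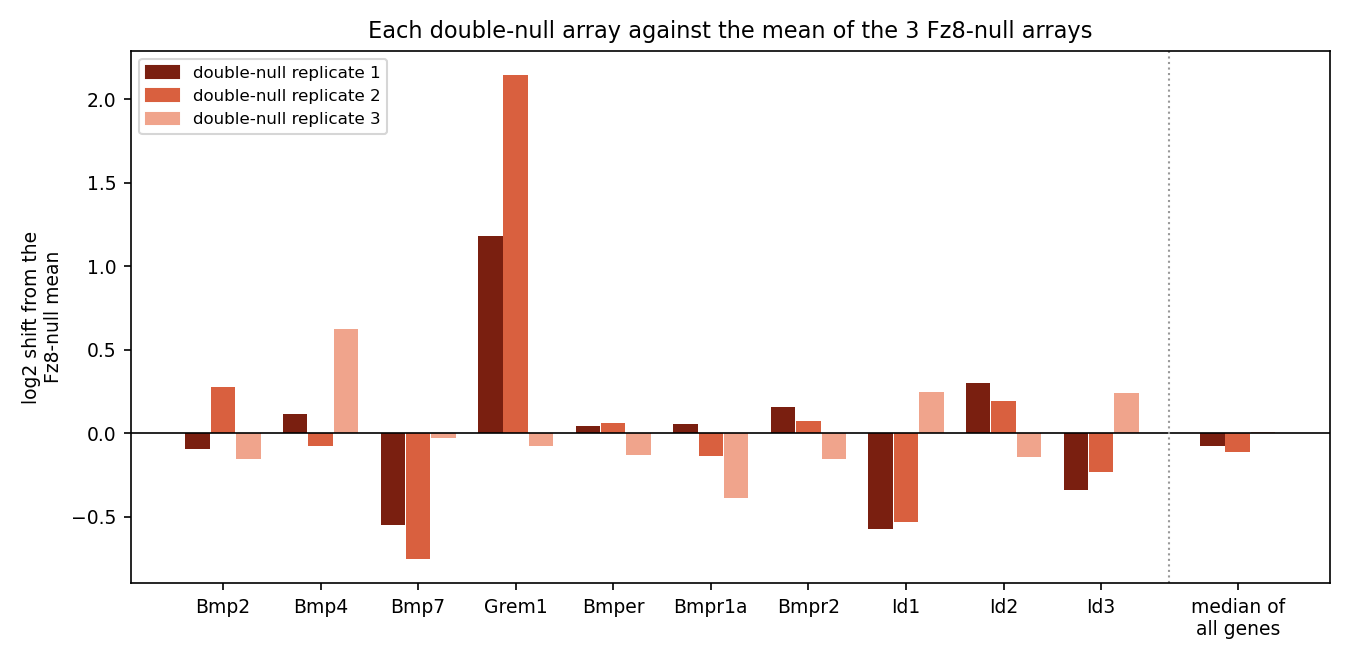
Log2 shift of each double-null array (bars, replicates 1, 2 and 3 from dark to light) from the mean of the 3 Fz8-null arrays, for the representative probe set of each BMP gene and, at the right, the median of all 18193 genes. Replicates 1 and 2 lie together for Bmp7 (-0.55 and -0.75), Id1 (-0.57 and -0.53) and Grem1 (1.18 and 2.14), while replicate 3 lies at -0.026, 0.25 and -0.075 for these genes.

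Endothelial cells express Id1 and Id3, and in the endothelial list double-null replicates 1 and 2 again lay below every Fz8-null array. Of its 8 markers 6 stood lower, against 58.1% of all genes. The groups of 3 markers did not overlap, all 3 lower, against 12.2% of all genes. The list's mean was 8.24, 7.84 and 8.61 in double-null arrays, against 8.49 to 8.75 in Fz8-null arrays. The part of endothelial cells in the Id values was not tested. Without double-null replicate 3, Id1 stood at -0.55 (limma adjusted p = 0.0879), Id3 at -0.29 (adjusted p = 0.227) and Id2 at 0.25 (adjusted p = 0.258), so none of the 3 passed in the fit where 18.1% of all genes did. In the same fit the groups did not overlap for 6 of the 10 genes, against 53.4% of all genes: Bmp7, Id1 and Id3 were lower and Grem1, Bmpr2 and Id2 higher. With array weights, where double-null replicate 1 had a weight of 3.93 and replicates 2 and 3 had 0.48 and 0.21, Id1, Id3 and Grem1 passed, 3 of 10 against 41.6% of all genes, and 9 of the 21 probe sets passed, against 45.9% of all probe sets.

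Profiles over the 6 arrays were also set against those of all other genes. Among 11173 genes with a mean of at least 6, the closest to Id1 was Cltb, a clathrin light chain gene, at a root mean square difference of 0.024 after each gene's mean was subtracted, then Ap2s1 (0.062) and Zbtb8a (0.065). The closest to Id3 were Fam78a (0.038), Znrd1 (0.040) and Cd68 (0.040), and the closest to Id2 were Smarca5, which encodes a chromatin remodeller, Hnrnpf and Csnk1g3 (0.026, 0.029 and 0.029). No gene came as near to Grem1, for which Tmlhe, Npas3 and Ifi202b stood at 0.27, 0.27 and 0.29. The measure is not scaled by spread, so a gene that varies widely, as Grem1 does, has more distant neighbours for that reason alone. These likenesses rest on 6 arrays that share their array-wide differences.

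The rest of the pathway was read from 49 further genes, of which 45 were represented. None passed the threshold over all genes, and 6 of 45 had an unadjusted p under 0.05, against 15.3% of all genes. The groups did not overlap for 8 of 45, 5 lower and 3 higher, against 12.2% of all genes lower and 6.68% higher. The median difference was -0.15, against -0.061 for all genes, and it was -0.057 without double-null replicate 2. For the 25 pathway genes with a mean log2 value of 6 or more it was -0.21, against -0.15 for all 11174 such genes.

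**Figure D4:**
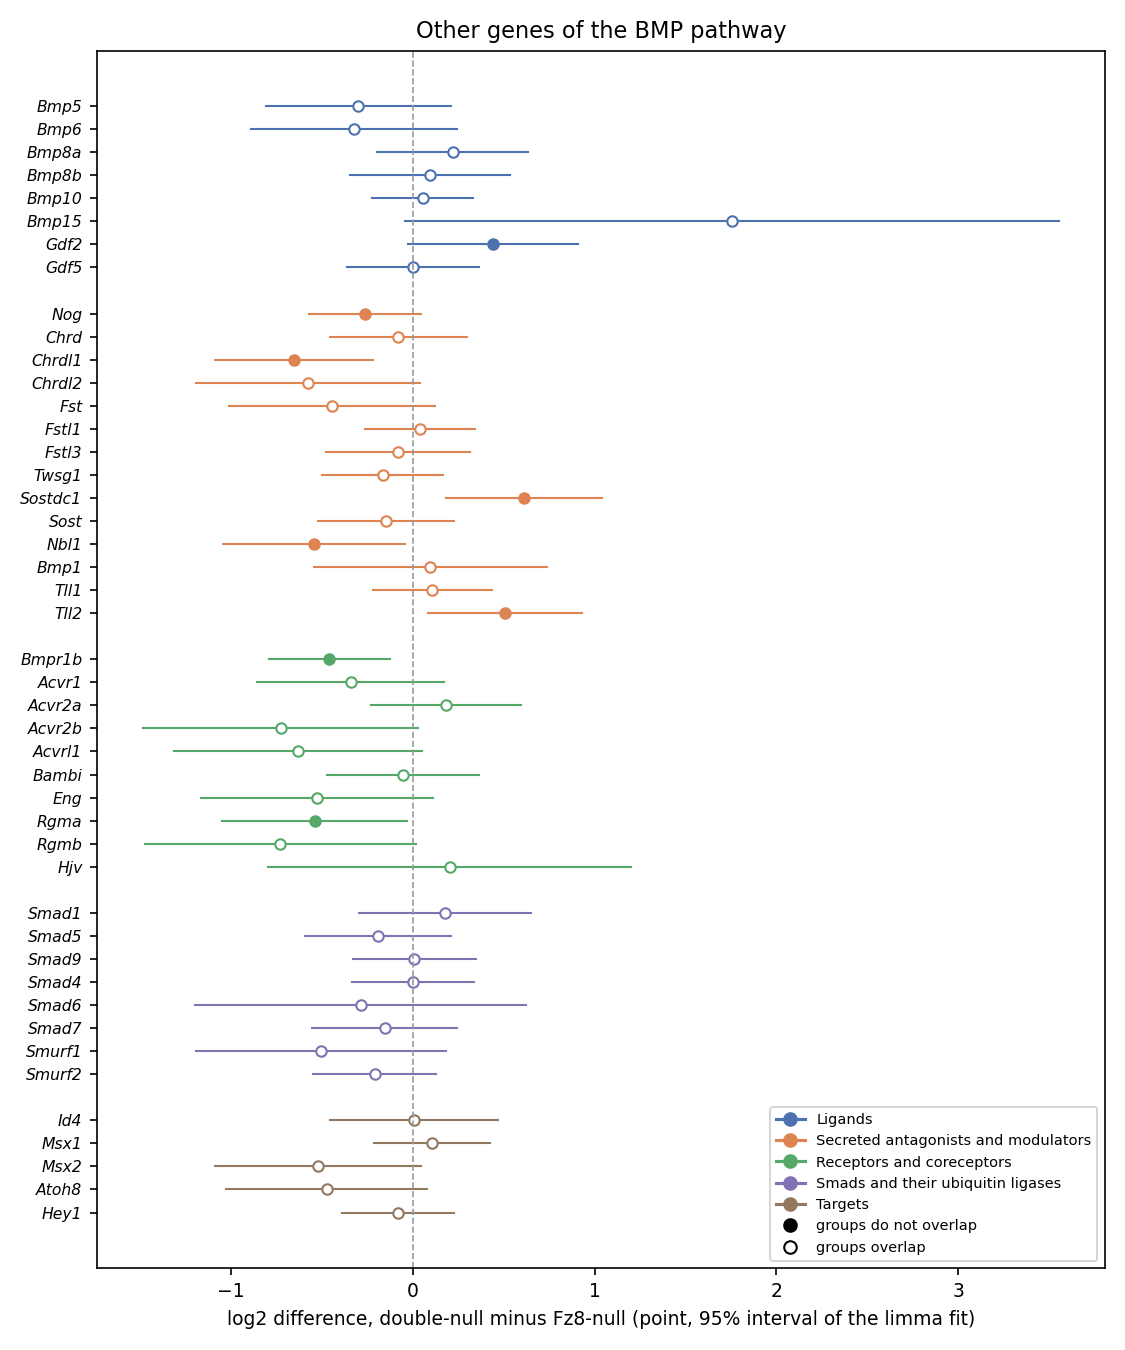
Log2 difference, double-null minus Fz8-null (horizontal axis), of 45 further BMP pathway genes in 5 roles (colours); points are limma estimates, lines 95% intervals, and filled points mark genes whose groups did not overlap. The 8 filled points include Chrdl1 at -0.65 and Sostdc1 at 0.61; Bmp15 stands far right at 1.75 with an interval that includes 0.

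Among the 14 measured antagonist and modulator genes, 9 stood lower and 5 higher, against 58.1% of all genes lower. The groups did not overlap for 5 of the 14, against 18.9% of all genes. Chrdl1, which encodes a chordin-like BMP-binding protein, read 6.10, 5.77 and 6.28 in double-null kidneys, against 6.47, 6.88 and 6.76 in Fz8-null kidneys. All 3 double-null arrays lay below the Fz8-null arrays, at a difference of -0.65 (SE 0.18, limma adjusted p = 0.314). Sostdc1, whose product binds BMPs and also the Wnt coreceptor Lrp6, read 7.95, 7.31 and 7.70 in double-null kidneys, against 7.07, 7.04 and 7.02 in Fz8-null kidneys. Every double-null array lay above the tight Fz8-null values, at a difference of 0.61 (SE 0.18, limma adjusted p = 0.314).

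Of the 10 receptor and coreceptor genes beyond Bmpr1a and Bmpr2, 8 stood lower and 2 higher, with a median of -0.49. The double-null arrays did not share this evenly. Acvr2b and Rgmb had the largest differences, -0.73 each, with overlap. Acvr2b read 7.32, 6.74 and 8.09 in double-null arrays, against a Fz8-null mean of 8.11. Rgmb read 6.69, 6.57 and 7.76, against a Fz8-null mean of 7.73. Over all genes 58.1% stood lower, with a median of -0.061, and for genes with a mean of 6 or more the median was -0.15. Bmpr1b, a type I receptor gene, read 8.52, 8.33 and 8.60 in double-null kidneys, against 8.79, 9.02 and 9.01 in Fz8-null kidneys, a difference of -0.46 (SE 0.14, limma adjusted p = 0.314) with no overlap. Rgma, a BMP coreceptor gene, read 5.54, 4.84 and 5.55 in double-null kidneys, against 5.81, 5.95 and 5.78 in Fz8-null kidneys, a difference of -0.54 (SE 0.21, limma adjusted p = 0.320), also with no overlap.

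Of the 8 other ligand genes measured, 6 stood higher and 2 lower, against 58.1% of all genes lower. Bmp5 and Bmp6 were the lower ones, at -0.30 and -0.32. Several of the higher genes were dim, with double-null means of 2.63 for Bmp10, 3.38 for Bmp8a and 3.57 for Gdf5. The difference of Gdf5 was 0.0020. Gdf2, also among the higher genes, encodes BMP9, a ligand made mainly by liver. Gdf2 read 4.97, 4.96 and 5.50 in double-null kidneys, against 4.94, 4.55 and 4.62 in Fz8-null kidneys. The groups did not overlap, though at the closest they were 4.96 and 4.94, and the difference was 0.44 (SE 0.20, limma adjusted p = 0.333). The liver list stood higher too, and its part in the Gdf2 values was not tested. The 8 genes of Smads and their ubiquitin ligases (5 lower, 3 higher, median -0.17) and the 5 further target genes (3 lower, 2 higher, median -0.081) had no gene whose groups did not overlap. Over all genes the share without overlap was 18.9%.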

How the data were processed

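The deposited table holds log2 probe-set intensities made with RMA by the authors, per the submitters' processing notes; the RMA version is not given in the sources used here. The values were used as they stand. After 64 control probe sets were set aside, 45037 were tested, of which 34945 are annotated to 1 gene, 932 to several and 9160 to none. There is no read depth on arrays: precision rests on their number, 3 a genotype.

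Double-null and Fz8-null arrays were compared with limma 3.58.1 in R 4.3.3 (eBayes after lmFit, two-sided, Benjamini-Hochberg adjustment over all probe sets or all genes, threshold 0.05), after testing on simulated data. The 10 genes, the pathway and marker lists and the motifs were chosen with earlier results of these data known. Pathway genes were named by role: any that passed or, failing that, the 2 with the largest difference among genes whose groups did not overlap. Profiles closest to the Id genes and to Grem1 were ranked by root mean square difference. Alternatives were a minimum mean of 6, array weights, a replicate block, trended and robust eBayes, equal array medians, quantile normalization, the mean of all probe sets and leaving out each array. Leaving out double-null replicates 1 and 2 together was chosen after seeing the data.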

Additional observations from a re-analysis of the deposited data

How the results depend on the processing

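Under 14 alternatives the count of BMP genes passing stayed at 0 except with array weights, where 3 passed (Grem1, Id1 and Id3), and without double-null replicate 3, where Grem1 passed. With array weights 7576 of 18193 genes passed (41.6%) and double-null replicates 1, 2 and 3 had weights of 3.93, 0.48 and 0.21, so that fit rests largely on replicate 1; Grem1 stood at 0.98 (adjusted p = 0.0437), Id1 at -0.66 (adjusted p = 0.0118, over a range of 0.0118 to 0.886) and Id3 at -0.38 (adjusted p = 0.0322, over a range of 0.0322 to 0.990). Array weights also gave 9 of the 21 probe sets and 21 of the 45 pathway genes. Leaving out each array in turn gave 0 to 1 BMP genes, 0 to 2 of their probe sets, 0 to 7 pathway genes and 0 to 6 genes without overlap, and the numbers 1, 2, 7 and 6 all came without double-null replicate 3, where 3292 genes passed and the groups did not overlap for 53.4% of all genes. The 7 pathway genes were Acvr2b, Bmp15, Chrdl1, Eng, Nbl1, Rgmb and Smurf1. Without Fz8-null replicate 2 the groups did not overlap for 1 gene (23.1% of all genes), and for 1 with the mean of all probe sets (19.6%). That mean put the median of the 10 genes at -0.11, Bmpr2 at -0.11 and Id2 at -0.27. Quantile normalization and equal array medians put Bmper at 0.056 and 0.048. With double-null replicates 1 and 2 left out, the remaining array is assumed to vary like the others; the groups did not overlap for 4 genes (53.0% of all genes), the medians were -0.10 for the 10 genes and -0.018 for the pathway list, and Bmp2 stood at -0.15, Grem1 at -0.075, Bmpr2 at -0.16, Id1 at 0.25, Id2 at -0.14 and Id3 at 0.24. Leaving out single arrays gave -0.12 to 0.16 for Bmp2, -0.11 to 0.081 for Bmper, -0.039 to 0.12 for Bmpr2, -0.29 to 0.0070 for Id3 and -6.42 to -5.71 for Fzd4, whose adjusted p was 0.0635 without Fz8-null replicate 1 and 0.0507 without Fz8-null replicate 3. Bmp4, Bmp7 and Bmpr1a kept their sign under all 14, but not their size, at 0.022 to 0.63, -0.73 to -0.026 and -0.39 to -0.038. The cause of these shifts was not tested. Grem1 is not in the fit with a minimum mean of 6.

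Replicate numbers are shared between the genotypes. The deviations of arrays with one number from their group means correlated at 0.17, -0.14 and 0.090. Not every array correlated best with its own number, though double-null replicate 1 did. Deviations within a group of 3 sum to 0 and so depend on each other. These values cannot show whether the numbers pair the arrays. With the replicate block 0 of the 10 genes, 0 of their probe sets and 0 of the 45 pathway genes passed, and the number of all genes passing was 3, against 5 without it.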

Other observations

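Bmp15, a ligand gene known from the oocyte, was picked out after its values were seen, because its double-null arrays were ordered like those of Grem1. It read 6.01, 7.22 and 3.91 in double-null kidneys, against 4.31, 3.70 and 3.87 in Fz8-null kidneys, a difference of 1.75 (SE 0.76, limma adjusted p = 0.328). Double-null replicates 1 and 2 lay above every Fz8-null array and double-null replicate 3 lay within their range.

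Other pathway genes whose groups did not overlap were likewise named after their values were seen. Nbl1, an antagonist gene of the DAN family to which gremlin belongs, stood at -0.54 (limma adjusted p = 0.319), with 5.95, 6.11 and 6.70 in double-null kidneys and 6.89, 6.78 and 6.72 in Fz8-null kidneys. Nog, which encodes the BMP antagonist noggin, stood at -0.26 and Tll2, which encodes a tolloid-like protease, at 0.51 (limma adjusted p = 0.354 and 0.314), both at log2 values under 4 on every array.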
